A study of Homo sapiens with 6 samples.

Results

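The 43 genes described here form the apoptosis machinery: the BCL2 family, caspases, apoptosome and mitochondrial factors, inhibitor of apoptosis proteins (IAPs), death receptors with their adaptors, and nucleases of DNA breakdown. They were chosen by symbol and role, and all 43 were found among the 25369 genes listed for each sample. RNA-Seq had been done on Caki2, a clear cell renal cell carcinoma (ccRCC) cell line that makes no PBRM1 protein, the BAF180 subunit of the PBAF chromatin remodeling complex. Caki2+Vector carried an empty doxycycline-inducible lentiviral vector and Caki2+PBRM1 the same kind of vector with full-length PBRM1, with 3 samples of each (A, B and C). Both are stable lines infected with lentivirus and selected with antibiotics, the inducible vector was used with rtTA3, the activator that answers to doxycycline, and both were grown with doxycycline at 2 μg/mL, added at least 72 hours before experiments. The study asked which genes and pathways respond to PBRM1. The study calls the samples of a group biological replicates, but the labels do not say whether they came from separate cultures, and the comparison is of 1 engineered line with another. The p-values thus measure only the spread among these samples, part of which may be technical. The transgene was driven well above the cell's own gene, so the comparison is of added PBRM1 rather than of a repaired allele.

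Apoptosis is run by caspases, proteases that are made inactive and switched on by cleavage. In the mitochondrial pathway BH3-only proteins sense stress, bind and neutralize the anti-apoptotic BCL2 proteins and free the effectors BAX and BAK1, which permeabilize the outer mitochondrial membrane and release cytochrome c to build the apoptosome on APAF1. In the death receptor pathway ligands such as TRAIL (TNFSF10) recruit the adaptor FADD and caspase-8 to the receptor, and CFLAR limits that step. Most of this machinery is also regulated after translation, by binding, cleavage and phosphorylation, none of which RNA-Seq measures.

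The total over all genes was 7312955 to 10835355 reads per sample, and the values are normalized counts, that is, reads per gene divided by a size factor of the sample (0.834 to 1.191) and not by gene length. PBRM1 had 195, 182 and 182 normalized counts in Caki2+Vector A, B and C and 2432, 2521 and 2682 in Caki2+PBRM1 A, B and C (log2 fold change 3.76, SE 0.056, 95% interval 3.65 to 3.88, adjusted p = 3.33e-29). The labels name the Caki2+Vector samples as Caki2 with empty vector, and the PBRM1 transcript was counted in them at the lower level. The study found PBRM1 mRNA in all its ccRCC lines, and no PBRM1 protein in Caki2. Protein was not measured in these data. Caki2+Vector A stood apart from the other replicates of its group, with a chi-square per degree of freedom over genes of 3.09 and 2.84 against B and C, where B against C gave 1.34, the pairs of Caki2+PBRM1 gave 1.19 to 1.22, and sampling noise alone gives about 1. Of 10 markers of renal epithelium and ccRCC, 8 passed the filter. PAX8 was at 1888 to 2190.0 in every sample while the E-cadherin gene CDH1 was at 1.9 or lower and CA9 at 15.2 or lower. Within that list KRT8 and KRT18 fell while CDH6 and VIM were among those that rose, and the part of this in the results for apoptosis genes was not tested. Of the markers of other cells, 1 of 5 leukocyte, 0 of 4 endothelial and 3 of 5 fibroblast genes passed the filter. The leukocyte list had sums of 2002.2 to 2145.6 in Caki2+Vector, with 1901.8 to 1939.4 in Caki2+PBRM1, nearly all of it CD68, a lysosomal protein gene that many cell types use, while CD3E was at 0 and PTPRC at 5.7 or lower. The endothelial list summed to 6.2 or less in every sample, with CDH5 at 0. The fibroblast list had sums of 104.3 to 111.5 in Caki2+Vector, with 101.6 to 128.0 in Caki2+PBRM1. Its genes past the filter were COL1A1, PDGFRB and PDGFRA, with COL1A1 the highest in every sample, at 65.5 to 88.9. DCN and LUM were at 1.9 or lower.

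A gene was tested if its normalized count reached 10 in at least 3 samples, and called if its log2(normalized count + 1) differed between the groups at an adjusted p under 0.05 (limma's moderated test, Benjamini-Hochberg over all 13303 genes tested). All adjusted p values come from this fit unless another test is named, and a fold change is on this log2 scale, which slightly understates that of low genes. Of the 43 apoptosis genes 42 were tested. HRK, a BH3-only gene, was at 5.7, 6.6 and 2.4 normalized counts in Caki2+Vector and 5.4, 7.1 and 7.6 in Caki2+PBRM1 and stayed under the filter. In Caki2+PBRM1, 8 of the 42 were upregulated (BMF, BCL2L11, BOK, BCL2, BCL2L1, CASP4, APAF1 and RIPK1) and 8 were downregulated (BID, BCL2L2, BCL2L13, CASP8, CYCS, TNFRSF10A, CFLAR and AIFM1), which is 38.1% of those tested. Over all genes 29.2% were called, 16.2% upregulated and 13% downregulated, against 19% in each direction among the apoptosis genes. Under quantile normalization the balance over all genes turned to 14.6% upregulated and 15.7% downregulated, while the same 16 apoptosis genes were called. An exact permutation test of single genes gave p = 0.1, the smallest that 3 against 3 allows, for the 14 called genes whose groups did not overlap, and 0.2 for BID and TNFRSF10A. The share called is a description, since the genes were not drawn at random and no test was made over them. In bulk RNA, a change in the share of cells that express a gene and a change in RNA per cell cannot be told apart.

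**Figure D1:**
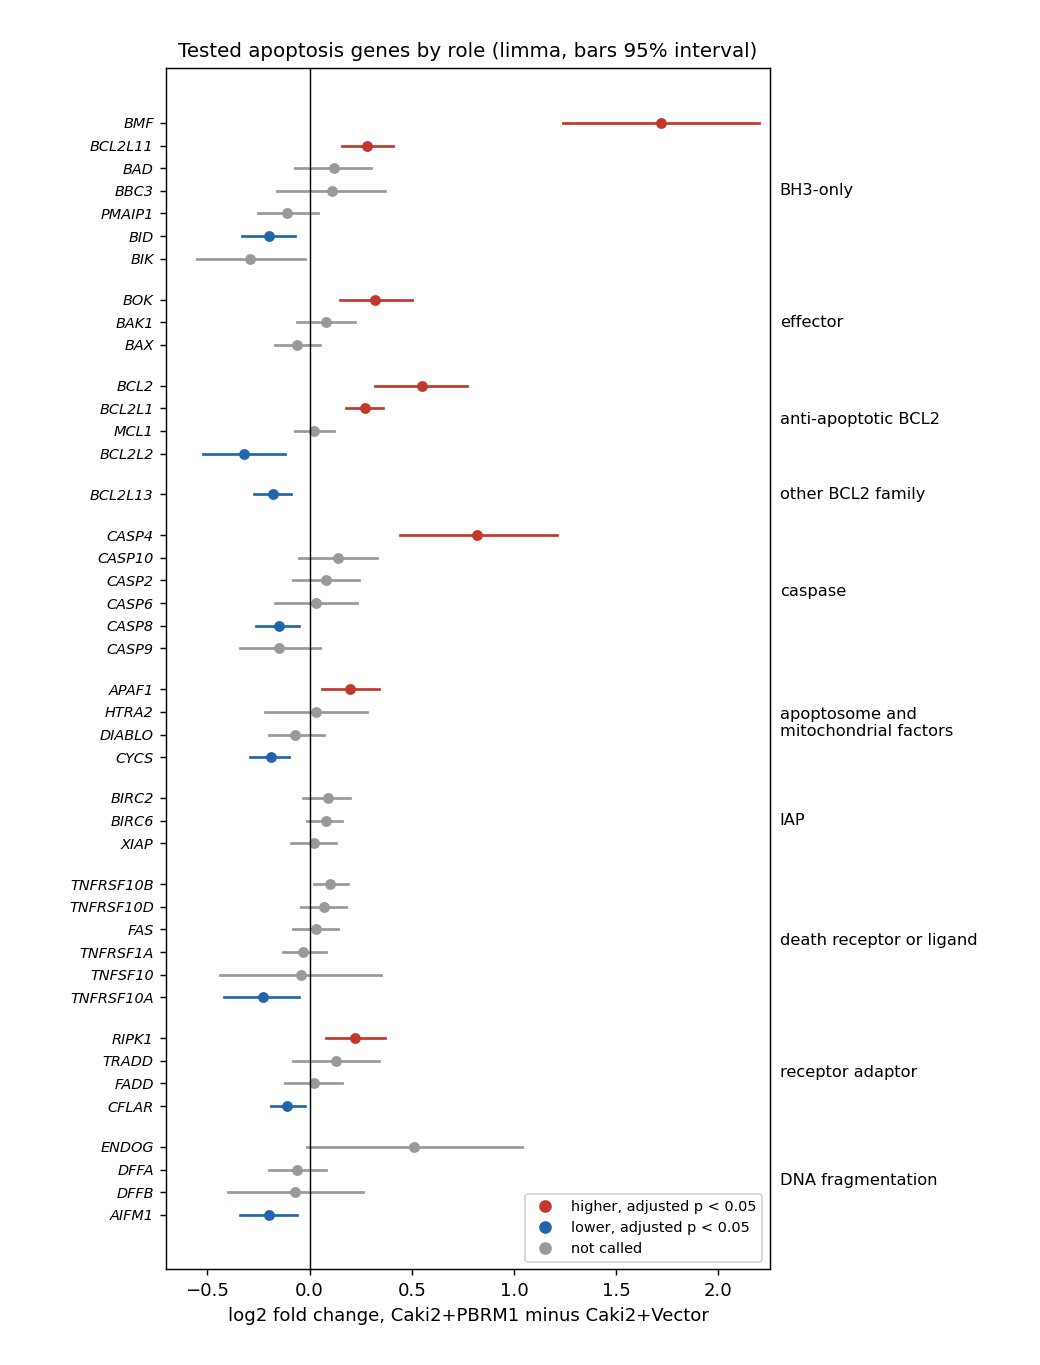
Log2 fold change (Caki2+PBRM1 minus Caki2+Vector, x axis) of the 42 tested apoptosis genes, grouped by role, with points at the limma estimate and bars at the 95% interval; red marks 8 upregulated genes, blue 8 downregulated genes and grey the 26 not called. BMF stands at 1.72, CASP4 at 0.82 and BCL2 at 0.55, and most other genes lie close to 0 on either side.

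Most differences were small. The median log2 fold change of the 42 genes was 0.030 and the median size, ignoring sign, was 0.112, beside -0.004 and 0.141 over all genes tested. Only BMF passed 2-fold among these 42, and 29 of them differed by less than 0.2 in size. The normalized counts of the groups did not overlap for 18 of the 42 (42.9%), 12 higher and 6 lower, where 41.7% of all genes tested had groups apart in this way, 22.1% higher and 19.6% lower. The 26 genes that were not called had estimates from -0.29 (BIK) to 0.51 (ENDOG), and 24 of them had a 95% interval lying wholly within 0.5 of 0 on the log2 scale. The exceptions were BIK and ENDOG. Summed over all 43 genes, the normalized counts ran from 26496.5 to 26603.8 in Caki2+Vector, and those of Caki2+PBRM1 from 26639.2 to 26940.7. These ranges did not overlap, and the means of 26547.5 and 26757.9 lay close to each other.

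The BCL2 family held 8 of the 16 calls. Of its 16 members 15 were tested, with 5 upregulated and 3 downregulated (53.3%) and a median size of 0.202, whereas the 27 members outside the family had 3 upregulated and 5 downregulated (29.6%) and a median size of 0.088. Over all genes 29.2% were called, with a median size of 0.141. The difference between these shares was not tested. The family is joined by the BH3 motif, the short helix through which its proteins bind each other. To show what the called members share and where they differ, the coding bases of that motif are printed for the 6 called members with a single match, each taken 5′ to 3′ on the coding strand from GENCODE v44 MANE Select transcripts on GRCh37, the same assembly as the hg19 used for the counts. The 18 capitals are the codons of the core, found by a script in the reading frame as a leucine or methionine codon, 3 codons of any kind, a glycine, alanine or serine codon and an aspartate codon.
BMF: cgaaagCTTCAGTGCATTGCAGACcagttc
BCL2L11: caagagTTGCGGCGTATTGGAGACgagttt
BOK: gcggtgCTGCTGCGCCTGGGCGATgagctg
BCL2: ctgaccCTCCGCCAGGCCGGCGACgacttc
BCL2L1: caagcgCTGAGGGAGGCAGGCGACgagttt
BCL2L2: caagccATGCGGGCAGCTGGAGATgagttc
These windows are coding exon at chr15:40396402-40396431 (minus strand) for BMF, chr2:111907674-111907703 (plus) for BCL2L11, chr2:242499100-242501773 (plus, across an exon junction) for BOK, chr18:60985588-60985617 (minus) for BCL2, chr20:30309731-30309760 (minus) for BCL2L1 and chr14:23777106-23777135 (plus) for BCL2L2. Position by position, 13 of the 18 core bases of BCL2L1 were the same as in BCL2, 9 in BCL2L11, BOK and BCL2L2, and 7 in BMF. The pattern matched once in 14 of the 16 family members, more than once in BID and nowhere in BCL2L13, which are both called and are not printed. It is loose: 40.7% of 18752 MANE Select coding sequences, and 26.3% of the 10643 no longer than the longest of the family, held at least 1 match, so a match is a description of these letters and not a shown BH3 site.

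The BH3-only genes split. BMF, which senses detachment and cytoskeletal stress, was the only 1 of the 42 tested to change more than 2-fold, BCL2L11 (BIM), a strong activator of the effectors, rose by 21.7%, and BID, the link from caspase-8 to the mitochondria, fell. BMF (chromosome 15, 40380091 to 40401093, minus strand) had 13.3, 18.9 and 24.0 normalized counts in Caki2+Vector A, B and C and 68.2, 80.9 and 43.6 in Caki2+PBRM1 A, B and C. The lowest Caki2+PBRM1 sample stood well above the highest Caki2+Vector sample, and the 3 Caki2+PBRM1 samples differed among themselves by more than any of the Caki2+Vector samples did (log2 fold change 1.72, SE 0.232, 95% interval 1.24 to 2.20, adjusted p = 1.94e-06). BMF was low in both groups, with 14 to 91 reads per sample. BCL2L11 (chromosome 2, 111876955 to 111926021, plus strand) had 462, 437 and 452 normalized counts in Caki2+Vector and 546, 552 and 547 in Caki2+PBRM1, with the Caki2+PBRM1 samples close together and apart from the others (log2 fold change 0.28, SE 0.06, 95% interval 0.16 to 0.41, adjusted p = 0.000551). BID had 653, 765 and 743 normalized counts in Caki2+Vector and 609.8, 597 and 669.8 in Caki2+PBRM1. For BID the groups overlapped, since Caki2+Vector A lay below Caki2+PBRM1 C (log2 fold change -0.20, SE 0.063, 95% interval -0.33 to -0.07, adjusted p = 0.0152), and the call was lost without Caki2+Vector B, Caki2+Vector C, Caki2+PBRM1 A or Caki2+PBRM1 B (adjusted p = 0.0972, 0.0593, 0.0816 and 0.1) and under DESeq2 (0.0532), within a range of 6.68e-05 to 0.1 over 16 alternatives.

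The other tested BH3-only genes did not pass. BIK, an endoplasmic reticulum member, had 93.7, 119 and 125 normalized counts in Caki2+Vector and 105, 85.3 and 84.8 in Caki2+PBRM1. Its groups overlapped through Caki2+Vector A (log2 fold change -0.29, SE 0.13, 95% interval -0.55 to -0.02, adjusted p = 0.0977), and without that sample it passed (log2 fold change -0.41, adjusted p = 0.0117), the only gene of the 26 to be called in any of the 16 alternatives. The stress-responsive genes BBC3 (PUMA) and PMAIP1 (NOXA) had log2 fold changes of 0.11, with a 95% interval of -0.16 to 0.37, and of -0.11, with a 95% interval of -0.25 to 0.04. BAD, which phosphorylation by survival kinases holds inactive, had 0.12, with a 95% interval of -0.07 to 0.30. Summed over the 8 BH3-only genes, the normalized counts had means of 2039.7 ± 53.6 without added PBRM1 and 2056.9 ± 36.0 with it (SD, n = 3 each).

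Of the effectors, the genes of the pore formers BAX and BAK1 were not called and BOK, an effector found largely on the endoplasmic reticulum, was upregulated. BAX had 813, 889 and 904 normalized counts in Caki2+Vector and 864, 822 and 817 in Caki2+PBRM1, with the groups overlapping (log2 fold change -0.06, SE 0.053, 95% interval -0.17 to 0.05, adjusted p = 0.463). BAK1 had a log2 fold change of 0.08, with a 95% interval of -0.06 to 0.22. BOK (chromosome 2, 242490839 to 242513546, plus strand) had 215, 235 and 208.5 normalized counts in Caki2+Vector and 272, 251 and 303 in Caki2+PBRM1. Every Caki2+PBRM1 sample was above every Caki2+Vector sample, with the highest value in Caki2+PBRM1 C (log2 fold change 0.32, SE 0.086, 95% interval 0.15 to 0.50, adjusted p = 0.00479). Without that sample BOK missed the threshold (log2 fold change 0.25, adjusted p = 0.0666), within a range of 0.00368 to 0.0666 over the alternatives. Part of its exons (7.7%) overlaps the antisense gene BOK-AS1, which had at most 0.9 normalized counts in a sample. How reads shared by these 2 genes were assigned is not stated, so this low count does not show that BOK-AS1 is silent.

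Among the anti-apoptotic genes, BCL2 and BCL2L1 (BCL-XL) rose, BCL2L2 (BCL-W) fell and MCL1, whose protein is short-lived and set largely by turnover, was not called. BCL2 (chromosome 18, 60790579 to 60987361, minus strand) had 98.5, 104 and 109 normalized counts in Caki2+Vector A, B and C and 169, 141 and 147 in Caki2+PBRM1 A, B and C. The groups were apart by more than the spread within either (log2 fold change 0.55, SE 0.11, 95% interval 0.32 to 0.77, adjusted p = 0.000295). BCL2L1 (chromosome 20, 30252255 to 30311792, minus strand) had 2195, 2476 and 2361 normalized counts in Caki2+Vector and 2824, 2851 and 2796.5 in Caki2+PBRM1, with the Caki2+PBRM1 samples close together and Caki2+Vector A lowest (log2 fold change 0.27, SE 0.042, 95% interval 0.18 to 0.36, adjusted p = 1.11e-05). The rise of BCL2L1 came to 20.6%. BCL2L2 (chromosome 14, 23767999 to 23780960, plus strand) had 171, 197.5 and 186 normalized counts in Caki2+Vector and 138, 149 and 158 in Caki2+PBRM1. Its groups did not overlap (log2 fold change -0.32, SE 0.097, 95% interval -0.52 to -0.12, adjusted p = 0.0138), but it missed the threshold without Caki2+Vector B (adjusted p = 0.0748), without Caki2+PBRM1 A (0.0805) and under DESeq2 (0.0809), in a range from 0.00366 over the alternatives. Of its exon bases 16.2% lie in the read-through gene BCL2L2-PABPN1 or the opposite-strand gene PPP1R3E. The first was listed at 0 in every sample and the second at 39.1 to 67.1. Whether the counting used strand is not stated, so reads shared with the second cannot be assigned with certainty. The first lies on the same strand as BCL2L2, so strand cannot separate their reads, and its 0 does not show that it is silent. MCL1 had 2269, 1979 and 2000.4 normalized counts in Caki2+Vector and 2158, 2095 and 2092 in Caki2+PBRM1. The estimate for this gene was 0.02, with a 95% interval of -0.07 to 0.12. The 4 genes together had sums of 4656.4 to 4756.9 in Caki2+Vector, against 5193.6 to 5288.1 in Caki2+PBRM1, and these ranges did not overlap. With added PBRM1 the mean sum rose from 4715.9 to 5239.5, mostly through BCL2L1, whose mean rose from 2344.3 to 2823.9. The means of BCL2 (103.8 to 152.4) and MCL1 (2083.0 to 2115.0) rose by far fewer counts, and that of BCL2L2 fell (184.9 to 148.2). The sums thus do not show a rise shared by the 4 genes.

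BCL2L13 (BCL-Rambo), a mitochondrial outer membrane member with ties to mitophagy, was downregulated. It had 1467, 1456 and 1439.5 normalized counts in Caki2+Vector and 1280.3, 1286 and 1276 in Caki2+PBRM1. Both groups were tight, without overlap (log2 fold change -0.18, SE 0.044, 95% interval -0.27 to -0.09, adjusted p = 0.0018).

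Ratios of normalized counts within a sample, which are free of the size factor, showed how opposing members moved and carry no test. They are not scaled by gene length, so they serve to compare the groups and do not give the relative levels of a pair. BAX to BCL2 was 8.260, 8.555 and 8.286 in Caki2+Vector and 5.115, 5.818 and 5.560 in Caki2+PBRM1, without overlap. Of this pair BCL2 was called and BAX was not. BMF to BCL2 was 0.135, 0.182 and 0.220 in Caki2+Vector and 0.404, 0.572 and 0.297 in Caki2+PBRM1, also without overlap, both genes having risen. BCL2L11 to BCL2L1 had means of 0.193 ± 0.017 and 0.194 ± 0.001 in these groups (SD, n = 3 each), with BCL2L11 up by 21.7% and BCL2L1 by 20.6%.

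**Figure D2:**
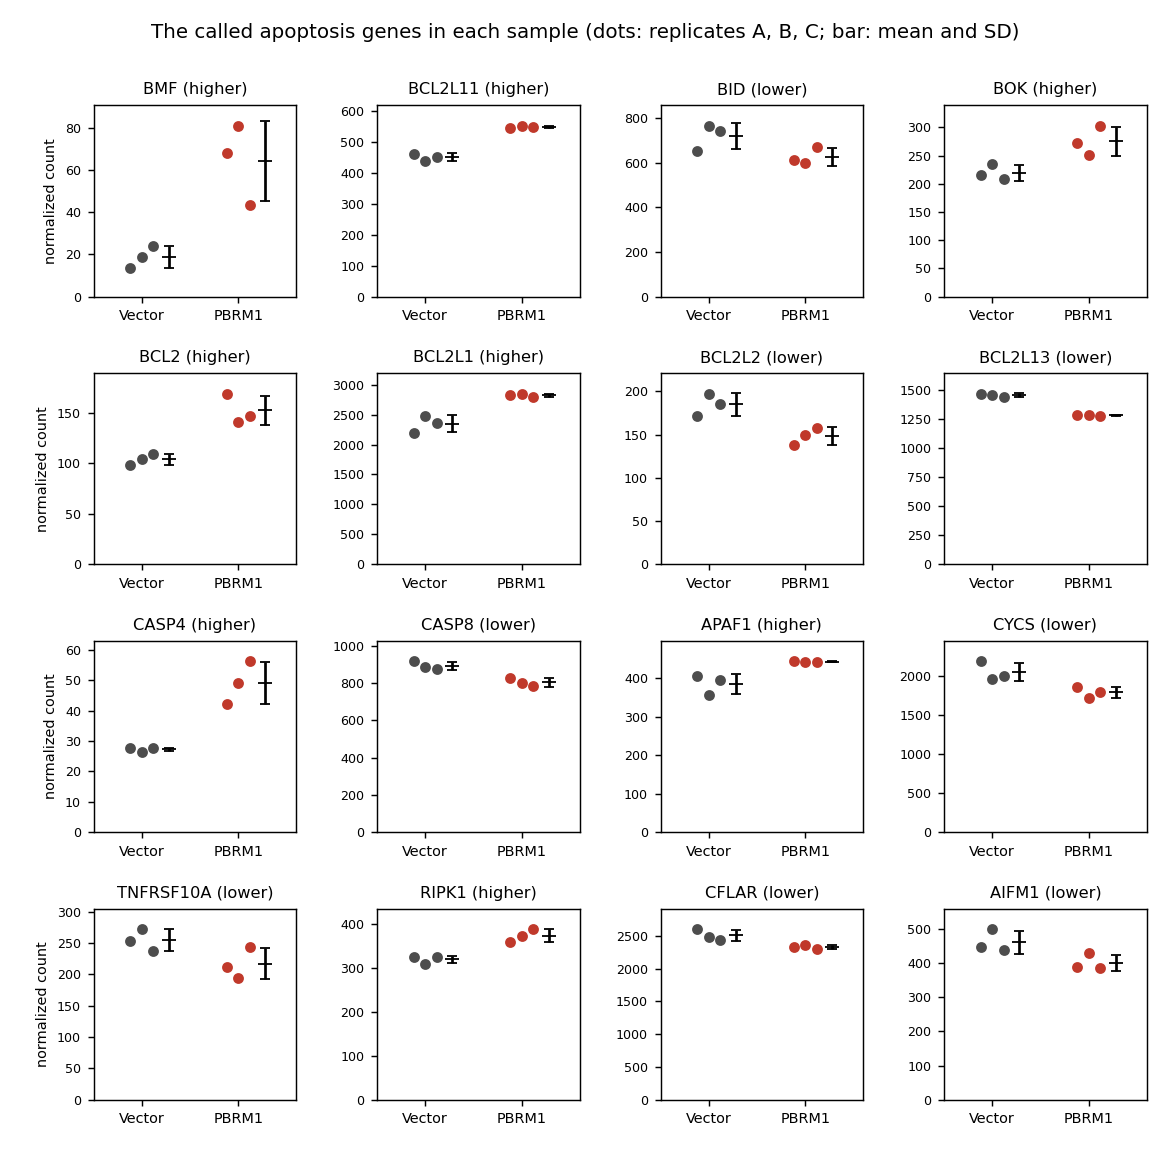
Normalized counts (y axis, each panel from 0) of the 16 called apoptosis genes in Caki2+Vector and Caki2+PBRM1, with dots for replicates A, B and C from left to right and the bar for the mean and SD. The groups are apart in every panel except BID and TNFRSF10A, and the widest gap relative to the level is that of BMF (13.3 to 24.0 against 43.6 to 80.9).

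Of the 6 tested caspase genes, CASP4 was upregulated, CASP8 downregulated, and CASP2, CASP6, CASP9 and CASP10 were not called. CASP4 (chromosome 11, 104813593 to 104840093, minus strand) encodes an inflammatory caspase that recognizes intracellular lipopolysaccharide and is not part of the classical apoptotic cascade. It had 27.5, 26.5 and 27.6 normalized counts in Caki2+Vector A, B and C and 42.2, 48.9 and 56.2 in Caki2+PBRM1 A, B and C, a low level that rose in all 3 Caki2+PBRM1 samples (log2 fold change 0.82, SE 0.188, 95% interval 0.44 to 1.21, adjusted p = 0.00119). CASP8, the initiator at death receptors, had 918, 889 and 877 normalized counts in Caki2+Vector and 826.5, 803.5 and 783 in Caki2+PBRM1. The groups were apart by a small margin (log2 fold change -0.15, SE 0.051, 95% interval -0.26 to -0.05, adjusted p = 0.0222), and the call was lost without Caki2+PBRM1 B (adjusted p = 0.0746), without Caki2+PBRM1 C (0.116) and under DESeq2 (0.076), in a range from 0.0119 over the alternatives. CASP9, the initiator that the apoptosome activates, had a log2 fold change of -0.15, with a 95% interval of -0.34 to 0.05. CASP10, a neighbor of CASP8 on chromosome 2 that encodes a related initiator, had groups that did not overlap (173, 167 and 162 normalized counts in Caki2+Vector and 177, 203 and 176 in Caki2+PBRM1) and was not called (log2 fold change 0.14, adjusted p = 0.274). The executioner caspase gene CASP6 had 0.03, with a 95% interval of -0.17 to 0.23, and CASP2, an initiator that responds to DNA damage and extra centrosomes, 0.08, with a 95% interval of -0.08 to 0.24.

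Of the apoptosome and mitochondrial factors, APAF1, the scaffold of the apoptosome, rose and CYCS, which encodes cytochrome c and serves respiration in living cells, fell. APAF1 had 407, 356 and 394 normalized counts in Caki2+Vector and 444, 443 and 441.5 in Caki2+PBRM1. The Caki2+PBRM1 samples were almost equal and above all Caki2+Vector samples (log2 fold change 0.20, SE 0.067, 95% interval 0.06 to 0.34, adjusted p = 0.0247). Its call depended on several samples and was lost without Caki2+Vector B (adjusted p = 0.134), without Caki2+PBRM1 A, B or C (0.0768, 0.0765 and 0.0729) and under DESeq2 (0.108), in a range from 0.00346 over the alternatives. Of its exon bases 10.2% lie in the opposite-strand gene ANKS1B, which was at 31.2 to 43.5 in all samples. CYCS had 2191, 1969 and 1999 normalized counts in Caki2+Vector and 1862, 1724 and 1795 in Caki2+PBRM1. The groups did not overlap, with Caki2+Vector A highest (log2 fold change -0.19, SE 0.045, 95% interval -0.29 to -0.10, adjusted p = 0.0016), and CYCS has processed pseudogenes with which the counting could have shared reads, so its level is uncertain. DIABLO (SMAC) and HTRA2, released from mitochondria to displace IAPs, had log2 fold changes of -0.07, with a 95% interval of -0.20 to 0.07, and 0.03, with a 95% interval of -0.22 to 0.28. A large part of the exons of each lies in an opposite-strand gene (40.4% of DIABLO in B3GNT4, 34% of HTRA2 in LOXL3).

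None of the 3 IAP genes was called, at estimates from 0.02 to 0.09 with limma, where 0 of the 3 had an unadjusted p under 0.05, and 0 were called in any of the 16 alternatives, edgeR and DESeq2 included. BIRC6, the large IAP that ubiquitinates caspases, had 1689, 1703 and 1711.5 normalized counts in Caki2+Vector and 1729, 1858 and 1798 in Caki2+PBRM1. Its groups did not overlap, but the difference of 0.08, with a 95% interval of -0.01 to 0.16, did not pass (adjusted p = 0.186). XIAP, the direct caspase inhibitor, had 0.02, with a 95% interval of -0.09 to 0.13, and BIRC2 (cIAP1), a ubiquitin ligase of TNF receptor complexes, had 0.09, with a 95% interval of -0.03 to 0.20. The 3 genes had sums of 3235.8 to 3340.4 in Caki2+Vector, against 3414.2 to 3433.6 in Caki2+PBRM1.

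Of the 6 death receptor and ligand genes among the 43, limma called 1, TNFRSF10A (DR4), a signaling TRAIL receptor. It had 254, 272 and 237 normalized counts in Caki2+Vector and 212, 195 and 243 in Caki2+PBRM1. Caki2+PBRM1 C lay within the range of Caki2+Vector, so the groups overlapped, and the call was narrow (log2 fold change -0.23, SE 0.089, 95% interval -0.42 to -0.05, adjusted p = 0.0485). It was lost without Caki2+Vector B (adjusted p = 0.194), without Caki2+PBRM1 A (0.137) or B (0.273), without the filter on low values and under DESeq2 (0.167), in a range from 0.019 over the alternatives. TNFRSF10B (DR5), the other signaling TRAIL receptor, had 1393.5, 1458 and 1444 normalized counts in Caki2+Vector and 1559, 1519.9 and 1538 in Caki2+PBRM1. All its Caki2+PBRM1 samples were higher, but it did not pass (log2 fold change 0.10, SE 0.043, 95% interval 0.02 to 0.19, adjusted p = 0.0715). The decoy receptor TNFRSF10D, which lacks a working death domain, had groups that did not overlap and was not called (log2 fold change 0.07, adjusted p = 0.368). FAS had a log2 fold change of 0.03, with a 95% interval of -0.08 to 0.14. TNFRSF1A, the main TNF receptor, had -0.03, with a 95% interval of -0.13 to 0.08. TNFSF10, the TRAIL gene itself, was low (34.1, 32.1 and 41.9 normalized counts in Caki2+Vector and 33.6, 39.1 and 31.9 in Caki2+PBRM1) with overlapping groups and a wide interval (-0.04, with a 95% interval of -0.44 to 0.35). The TRAIL receptor genes lie together on chromosome 8 and resemble each other in sequence, so some reads may have been shared or dropped.

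At the receptor adaptors, RIPK1, the kinase that turns TNF receptor signals toward survival, apoptosis or necroptosis, rose, and CFLAR (cFLIP), the inactive relative of caspase-8 that blocks its activation, fell. RIPK1 had 326, 309.9 and 325 normalized counts in Caki2+Vector and 359.6, 372 and 389 in Caki2+PBRM1. Its groups were apart (log2 fold change 0.22, SE 0.07, 95% interval 0.08 to 0.37, adjusted p = 0.0162), and the call was lost without Caki2+Vector B (adjusted p = 0.056), under DESeq2 (0.0779) and when Caki2+PBRM1 B (0.0542) or C (0.0982) was left out, in a range from 0.00789 over the alternatives. CFLAR had 2602, 2486 and 2429.5 normalized counts in Caki2+Vector and 2324.5, 2359 and 2302 in Caki2+PBRM1. This was the smallest called change of the 43 genes (log2 fold change -0.11, SE 0.04, 95% interval -0.19 to -0.02, adjusted p = 0.0463), and it was kept only without Caki2+Vector C among the fits that left out a sample, and lost under DESeq2 (0.107) and without the filter on low values, with adjusted p from 0.00577 to 0.17 over the alternatives. CASP8 and CFLAR, neighbors on chromosome 2 with CASP10 between them, fell together, and their ratio had means of 0.357 ± 0.004 and 0.345 ± 0.009 (SD, n = 3 each) and overlapping ranges (0.353 to 0.361 and 0.340 to 0.356). FADD, the adaptor of FAS and the TRAIL receptors, had 0.02, with a 95% interval of -0.12 to 0.16, and TRADD, the adaptor of TNFRSF1A, 0.13, with a 95% interval of -0.08 to 0.34.

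Among the genes of DNA fragmentation, AIFM1, a mitochondrial flavoprotein that supports respiration and moves to the nucleus in caspase-independent death, was downregulated. AIFM1 had 445, 499 and 436 normalized counts in Caki2+Vector and 389, 427.5 and 385 in Caki2+PBRM1. All Caki2+PBRM1 samples were below all Caki2+Vector samples by a narrow margin (log2 fold change -0.20, SE 0.069, 95% interval -0.34 to -0.06, adjusted p = 0.0302), and the call was lost without Caki2+Vector B (adjusted p = 0.175), without Caki2+PBRM1 A (0.121) or C (0.135) and under DESeq2 (0.102), in a range from 0.00842 over the alternatives. ENDOG, a mitochondrial endonuclease, had 12.3, 20.8 and 19.2 normalized counts in Caki2+Vector and 27.1, 19.6 and 28.5 in Caki2+PBRM1, 13 to 34 reads per sample. The groups overlapped, the interval was wide (log2 fold change 0.51, SE 0.257, 95% interval -0.01 to 1.04, adjusted p = 0.137), and no difference was detected. DFFA, the inhibitor of the nuclease that cuts DNA between nucleosomes, had -0.06, with a 95% interval of -0.20 to 0.08, and DFFB, that nuclease, -0.07, with a 95% interval of -0.40 to 0.26.

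**Figure D3:**
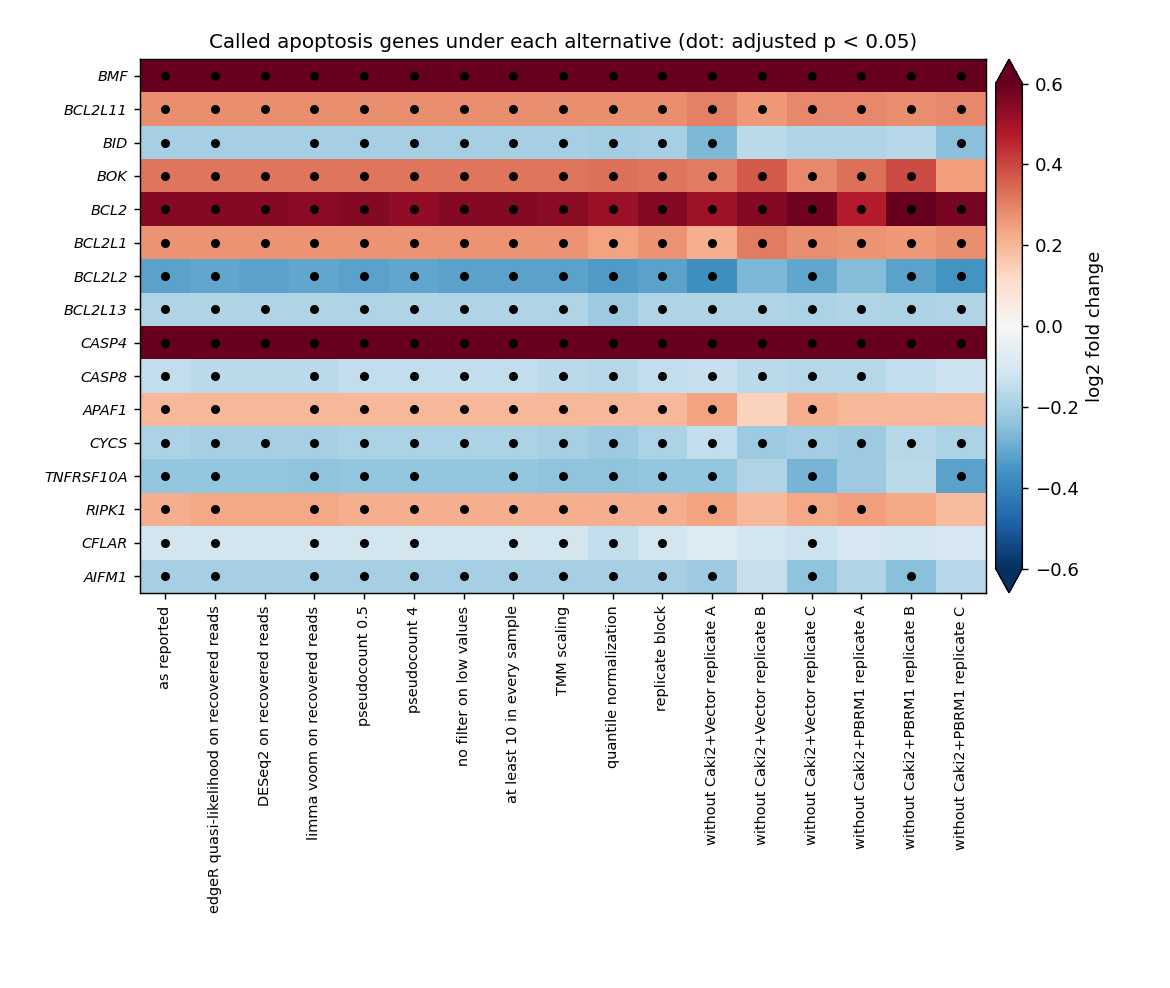
Log2 fold change (color, full at 0.6 and beyond) of the 16 called apoptosis genes (y axis) as reported and under 16 alternatives (x axis), with a dot where the adjusted p was under 0.05. The rows of BMF, BCL2L11, BCL2, BCL2L1, BCL2L13, CASP4 and CYCS hold a dot in every column, and the other 9 genes lose it in 1 (BOK) to 7 (CFLAR) columns while keeping their color.

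The 16 calls thus fell into a set kept in all alternatives and a set lost in some. Every alternative used these same samples, or all but 1 of them, so a kept call does not speak for other cultures or lines. BMF, BCL2L11, BCL2, BCL2L1, BCL2L13, CASP4 and CYCS were called in all 16 alternatives, with log2 fold changes from 1.5 to 1.97 for BMF, 0.26 to 0.30 for BCL2L11, 0.47 to 0.60 for BCL2, 0.22 to 0.31 for BCL2L1, -0.22 to -0.18 for BCL2L13, 0.72 to 0.92 for CASP4 and -0.22 to -0.15 for CYCS. These 7 and BOK were the 8 that DESeq2 called and the 8 with an adjusted p under 0.01 in limma. That is 19% of the 42 tested, beside 19.2% of all genes under DESeq2 and 19% at 0.01 in limma. The larger share of the apoptosis genes in the main fit was thus not seen in these 2 settings. The edgeR quasi-likelihood test on recovered whole reads called the same 16 as limma (30.3% of all genes). Without Caki2+Vector A there were again 16 (31.3% of all genes), of which 15 were shared.

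Levels can be set beside each other between genes only per length, here as normalized counts per kb of exon (the union of exons of protein-coding GENCODE transcripts). The reads had been counted on UCSC genes, whose exon lengths may differ from these, and exons shared with other genes were not taken out. The order is therefore approximate, above all for genes with a long union of exons such as CFLAR and BCL2 (20585 and 11931 bases). In Caki2+Vector the order began with BAX at 615 per kb, BCL2L1 at 591, MCL1 at 455, TNFRSF1A at 451 and TNFRSF10B at 358. It ended with BCL2 at 8.70, BMF at 3.81 and HRK at 0.85. BCL2L1 and BAX changed places at the top in Caki2+PBRM1 (712 and 591 per kb), and so did BMF and BCL2 at the bottom (13.1 and 12.8). Of the 42 pairs of neighbors in the order, 25 had overlapping replicates in each group, so much of the order is within the spread. Among these pairs were BAX and BCL2L1 in Caki2+Vector and BMF and BCL2 in Caki2+PBRM1. The change of places of BMF and BCL2 is thus not resolved. The called genes with the largest changes, BMF, CASP4 and BCL2, were all among the 7 lowest per length in Caki2+Vector.

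**Figure D4:**
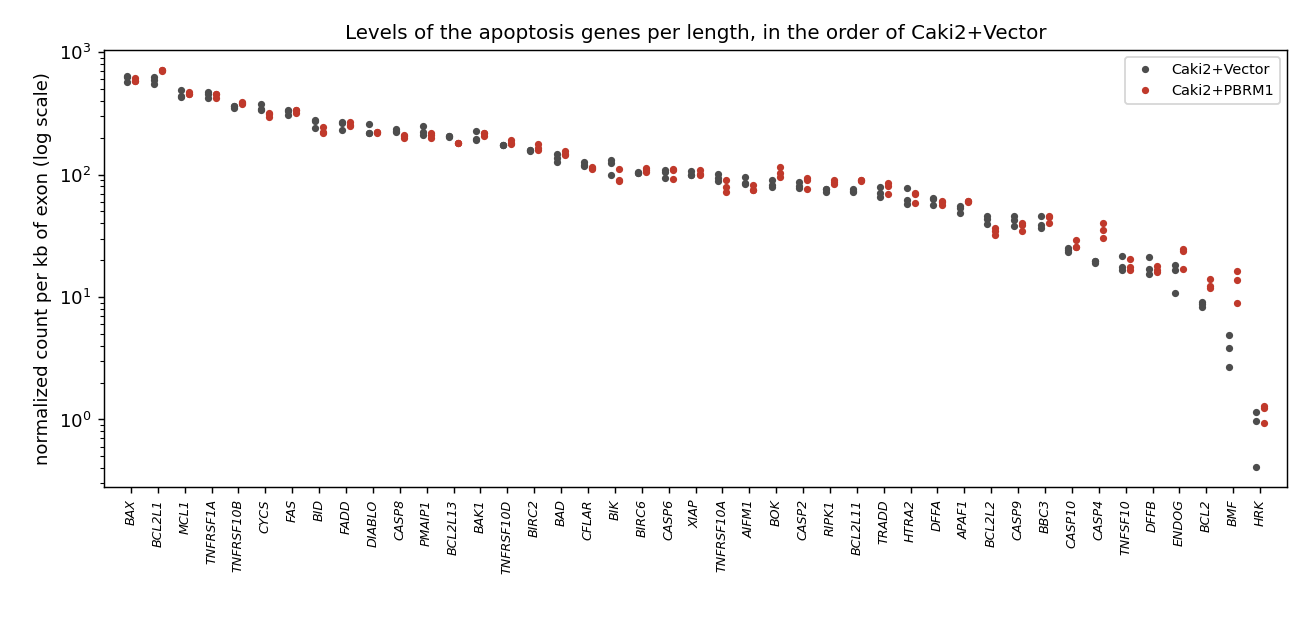
Normalized count per kb of exon (y axis, log scale) of the 43 apoptosis genes in each sample, in the order of their Caki2+Vector mean (x axis), with Caki2+Vector in grey and Caki2+PBRM1 in red. Levels run from 615 (BAX) to 0.85 (HRK) in the Caki2+Vector means, and only near the low end do the colors part widely, at CASP4, BCL2 and BMF.

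A list of 40 other genes of cell death, picked by role, showed how the rest of the pathway stood. Of its 26 tested genes 4 rose and 4 fell (30.8%, beside 29.2% over all genes). The 5 with the largest called changes were TNFRSF1B, MLKL, MOAP1, CYLD and FAF1. TNFRSF1B, the TNF receptor without a death domain, had 21.8, 36.8 and 32.4 normalized counts in Caki2+Vector and 16.2, 14.2 and 10.9 in Caki2+PBRM1, all Caki2+PBRM1 samples being lower (log2 fold change -1.07, SE 0.258, 95% interval -1.59 to -0.54, adjusted p = 0.00206). MOAP1, which binds BAX and promotes its activation, had 197, 192 and 195 normalized counts in Caki2+Vector and 253.5, 222 and 269 in Caki2+PBRM1 (log2 fold change 0.34, adjusted p = 0.00316). CYLD, a deubiquitinase that acts on RIPK1 complexes, rose (log2 fold change 0.31, adjusted p = 0.0111) and lost its call without Caki2+Vector B, Caki2+PBRM1 A or Caki2+PBRM1 C and under DESeq2, at adjusted p values up to 0.0796. FAF1, a FAS-associated factor, fell (log2 fold change -0.29, adjusted p = 0.00227). Among the other called genes, TNFRSF21, a death receptor, rose (log2 fold change 0.28, adjusted p = 0.000177) and DAXX, a chaperone that also binds FAS, fell (log2 fold change -0.21, adjusted p = 0.00262), both named after their values were seen. The IAP genes BIRC3 and BIRC5 were not called (log2 fold change -0.07, adjusted p = 0.183, and log2 fold change -0.04, adjusted p = 0.598).

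Of 10 transcription factors and regulators that control apoptosis genes, 9 were tested and 1 was called by limma (11.1%, beside 29.2% over all genes). FOXO3, which drives BH3-only genes such as BCL2L11, had 472, 449.7 and 499 normalized counts in Caki2+Vector and 519.9, 538 and 535 in Caki2+PBRM1 (log2 fold change 0.17, SE 0.062, 95% interval 0.04 to 0.29, adjusted p = 0.043). Its groups did not overlap, but it was called in 10 of the 16 alternatives only, and lost without Caki2+Vector B or without any 1 of the Caki2+PBRM1 samples, at adjusted p values up to 0.157.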

How the data were processed

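The deposited values are a signal per gene that the authors made from Caki2+Vector and Caki2+PBRM1 libraries: they filtered reads by quality and removed adapter and rRNA sequence, aligned with STAR to hg19, counted reads on 25369 UCSC genes with htseq-count and divided by a size factor (the submitters' processing notes name DESeq2 and DESeq). Replicates were deposited singly. Each deposited value was a whole read count divided by the sample's factor (100% within 0.01 of a whole number), so whole reads were recovered. A filter kept 13303 genes, those that reached 10 in 3 samples or more, and their log2(value + 1) went into limma 3.58.1 (R 4.3.3; trend and robust settings, no covariates), at an adjusted p under 0.05 (Benjamini-Hochberg). The median SE over genes was 0.083, and the exact permutation test of 3 against 3 cannot go below 0.1. edgeR 4.0.16 (quasi-likelihood), DESeq2 1.42.0 and voom on recovered reads were alternatives, with other pseudocounts (0.5 and 4), filters, scalings, a threshold of 0.01, a replicate block and each sample left out. Tested on simulated data for this comparison (13303 genes), limma found 99% of changes of 1 on the log2 scale and 62% of 0.3. Of its 176 calls there, 15 were false. The changes had been set only in a small random part of the genes with higher counts, far fewer than were called in the data. These shares thus do not cover genes with low counts such as BMF, CASP4, TNFSF10 and ENDOG.

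Positions and exon lengths came from GENCODE v44 mapped to GRCh37 and were matched by symbol. The search for the BH3 core had been planned on protein sequence and was made in the reading frame of transcripts instead. All apoptosis genes are named, with values per sample for those called, for the one with the highest mean of each role and for BAX and BCL2. Of the further lists, the called genes with the 5 largest changes are named. The genes and lists were chosen with earlier results of these data known. A few genes of these lists are not reported here.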

Additional observations from a re-analysis of the deposited data

How the results depend on the processing

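The 8 upregulated apoptosis genes were 5 to 8 and the 8 downregulated were 3 to 8 when single samples were left out. The low values came without Caki2+PBRM1 C (5) for the first, and without Caki2+Vector B or Caki2+PBRM1 A (3 each), Caki2+PBRM1 B (4) or Caki2+PBRM1 C (5) for the second, where fewer samples entered the fit. The downregulated were 2 under DESeq2 and 2 at an adjusted p under 0.01, while the upregulated were 6 under both. Over all genes the downregulated went from 1734 to 1057 under DESeq2 and to 1025 at 0.01, and the upregulated from 2152 to 1496 under both. The fits that left out a sample called 12.4% to 16.9% of all genes upregulated and 9.07% to 14.4% downregulated, where the main fit called 16.2% and 13%. The count of 1 upregulated regulator (FOXO3) became 0 under DESeq2, without the filter, at 0.01 and without Caki2+Vector B, Caki2+PBRM1 B or Caki2+PBRM1 C (0 to 1 over the fits without 1 sample), and without Caki2+PBRM1 A it was TP73 in place of FOXO3. Why DESeq2 called fewer genes was not tested. Of the 16 called apoptosis genes 7 kept their call in all 16 alternatives, 9 lost it in at least 1 and 0 reversed. Other scalings moved the median of all genes by at most 0.021 in size.

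With the replicate letter as a replicate block the counts were again 8 and 8 (the same 16 genes), with 2249 and 1858 over all genes and 4 and 5 in the other apoptosis list. Deviations of samples with the same letter had r = 0.006, -0.008 and 0.014 across genes, so the letters did not pair the samples.

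HRK was under the filter and was not tested, and the counts of ENDOG, BMF, TNFSF10 and CASP4 were low. The sharing of reads of BCL2L2, CYCS, DIABLO and HTRA2 with other genes was not measured.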

Other observations

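Genes of lytic cell death were also in the files. RIPK3, the kinase that activates MLKL in necroptosis, had 0 reads in all 6 samples, which at 3 counts allows at most 2.52 to 3.60 normalized counts in a sample, for counting error only. MLKL, the pore former of necroptosis, was at 382.5, 414.8 and 381.1 normalized counts in Caki2+Vector and 301.1, 326.2 and 272.8 in Caki2+PBRM1, without overlap (log2 fold change -0.39, SE 0.075, adjusted p = 1.88e-04 from limma), and was called in all 16 alternatives (-0.45 to -0.32). Beside CASP4, which rose, the inflammatory caspase gene CASP1 had at most 6.0 normalized counts in a sample and CASP5 had 0 reads in all 6. The ligand gene FASLG also had 0 reads in every sample, and TNF was at 20.1 to 30.3.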
